A study of Oryza sativa Japonica Group with 6 samples.

Results

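Alpha-amylases are the endohydrolases that cut starch into soluble chains, and the rice genome carries several genes for them. The set described here holds 7 of these, RAmy1A (OS02G0765600), RAmy2A (OS06G0713800), RAmy3A (OS09G0457400), RAmy3B (OS09G0457600), RAmy3C (OS09G0457800), RAmy3D (OS08G0473900) and RAmy3E (OS08G0473600), together with RASI (OS04G0526600), the rice alpha-amylase/subtilisin inhibitor. The 8 genes were chosen as a family, with earlier results of these data known, and were taken by a written list of feature IDs that sets no threshold on a measured value, from a table of 93655 features, of which 36189 were above 0 in at least 1 library. Under these names, 7 of the 8 stand at the matching place in the RefSeq gene table of assembly ASM3414082v1, and RAmy3C rests on the ID and name pair alone.

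All libraries came from rice endosperm, which fills the grain with starch, collected 7 days after pollination. There were 3 WT libraries, named in the series title for the japonica cultivar ZH11, and 3 libraries of the nf-yc11 mutant, whose name is that of one NF-Y (nuclear factor Y) subunit. No treatment was given in the labels, no locus or type of mutation is stated, and nothing says whether a group holds 1 line or several, or whether its libraries came from separate plants. P-values therefore rest on library-to-library spread alone, and that spread may be technical. Since the labels give no locus, the level of the mutated gene was not used as a check of the labels.

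During grain filling, starch is laid down faster than it is broken down. Alpha-amylase genes are best known from germination, when gibberellin from the embryo switches on some of them in the aleurone and scutellum. A second set of signals, low sugar and low oxygen, acts through the kinase SnRK1A and MYB factors that bind the TATCCA element of these promoters. RASI belongs to the Kunitz-type inhibitors. Its barley counterpart binds both the bacterial protease subtilisin and one of the barley alpha-amylases.

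At 7 days after pollination the inhibitor gene RASI was 2.02-fold higher in the nf-yc11 libraries, whereas the 2 alpha-amylase genes with measurable expression, RAmy3E and RAmy2A, were not called changed, and the other 5 alpha-amylase genes had at most 2 reads each over all 6 libraries. Values are FPKM, a read number scaled to gene length and to library depth, so levels of different genes can be set side by side per length. The library totals behind them, worked out from the values, ran from 14593215 to 21984785 reads. Of the 8 genes, 3 passed the filter of a mean of at least 1 FPKM, and these 3 were tested with limma on log2(FPKM + 1) among 22093 features. A call is an adjusted p under 0.05 (Benjamini-Hochberg over all tested features). The test called 1 of the 3, which is to be read beside the 49.1% of all tested features that it called, 29.8% higher and 19.3% lower in nf-yc11. With size factors the same test called 5434 higher and 5295 lower, where the deposited scaling gave 6586 and 4256.

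RAmy3E, known from rice as an alpha-amylase gene of the sugar-repressed subfamily, was the 1 alpha-amylase gene at a substantial level in these libraries. Its WT libraries stood at 105, 103 and 109 FPKM and its nf-yc11 libraries at 105, 105 and 104 FPKM. The nf-yc11 values all lay inside the WT range. The means were 106 ± 2.60 and 105 ± 0.552 FPKM (SD, n = 3), with a log2 change of −0.01 ± 0.03 SE and a 95% interval from −0.09 to 0.06 (adjusted p = 0.752, limma). These values rest on 8663 reads in the WT libraries and 8014 in the nf-yc11 libraries. The absence of a call depended on the scaling between libraries. With size factors by the median of ratios, RAmy3E fell by 0.09 on the log2 scale (adjusted p = 0.0464, limma), and with quantile normalization by 0.12 (adjusted p = 0.0203, limma).

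RAmy2A, of a subfamily of its own, was expressed at a low level. Its WT libraries stood at 8.84, 7.79 and 8.02 FPKM and its nf-yc11 libraries at 7.80, 6.64 and 7.67 FPKM. The nf-yc11 libraries tended to the lower end, but the highest of them lay just above the lowest WT library, so the groups overlapped. The means were 8.22 ± 0.553 and 7.37 ± 0.638 FPKM (SD, n = 3), the log2 change was −0.14 ± 0.08 SE with a 95% interval from −0.33 to 0.05, and it was not called (adjusted p = 0.196, limma). With 744 reads over the WT libraries and 617 over the nf-yc11 libraries, counting error alone gives a coefficient of variation of 6.35% and 6.97% per library, close to the observed 6.73% and 8.65%.

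**Figure D1:**
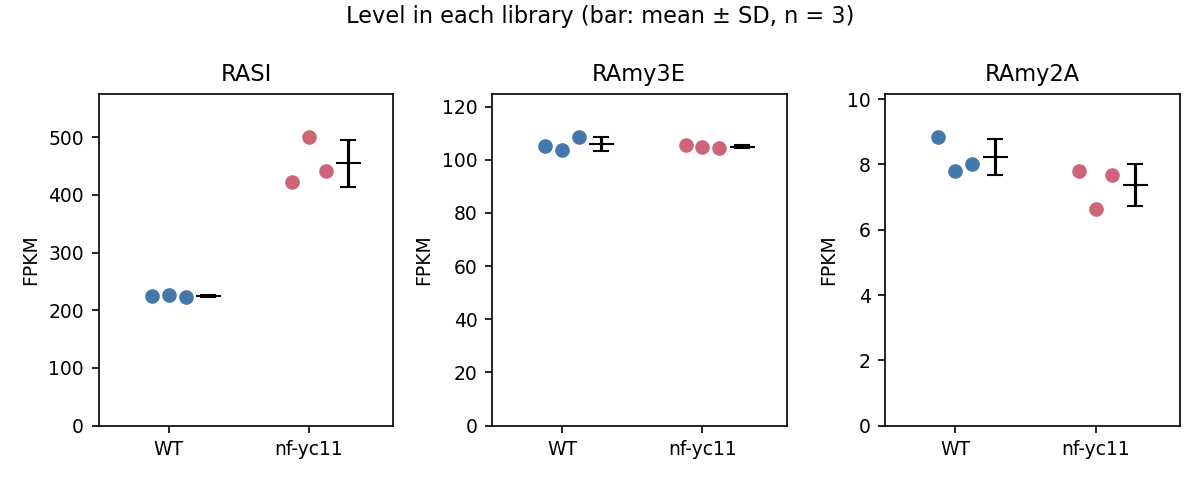
Level of RASI, RAmy3E and RAmy2A in FPKM (vertical axes, from 0) in each of the 3 WT and 3 nf-yc11 libraries. Points are libraries and bars are the mean ± SD. RASI stands at 223 to 227 FPKM in WT and 422 to 501 FPKM in nf-yc11.

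The other 5 alpha-amylase genes were at or next to 0. RAmy1A, the main gibberellin-induced alpha-amylase gene of germinating rice grains, had 1 read in nf-yc11 replicate 2 (0.0402 FPKM) and none elsewhere. RAmy3D, known for its induction by sugar starvation, had 2 reads in the same library (0.0714 FPKM) and none elsewhere. RAmy3A had 1 read in WT replicate 3 (0.0419 FPKM). RAmy3C had 0.0822 FPKM in nf-yc11 replicate 3, which is 1 read on a length of 716 bases or 2 reads on 1432 bases. RAmy3B had no read in any library.

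Of these 5 genes, 4 thus had 5 reads among them, counted at the shortest length that gives whole numbers. A count of 0 allows up to 3 reads in a library, which for a gene of the 1560 bases worked out for RAmy1A is 0.0875 to 0.132 FPKM. Each single value listed for these genes lay at or under such a limit, so no fold change is given and no difference between WT and nf-yc11 was detectable at this depth. In the fit without a filter on low values, the 4 genes with reads had adjusted p of 0.593 to 0.750 (limma).

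**Figure D2:**
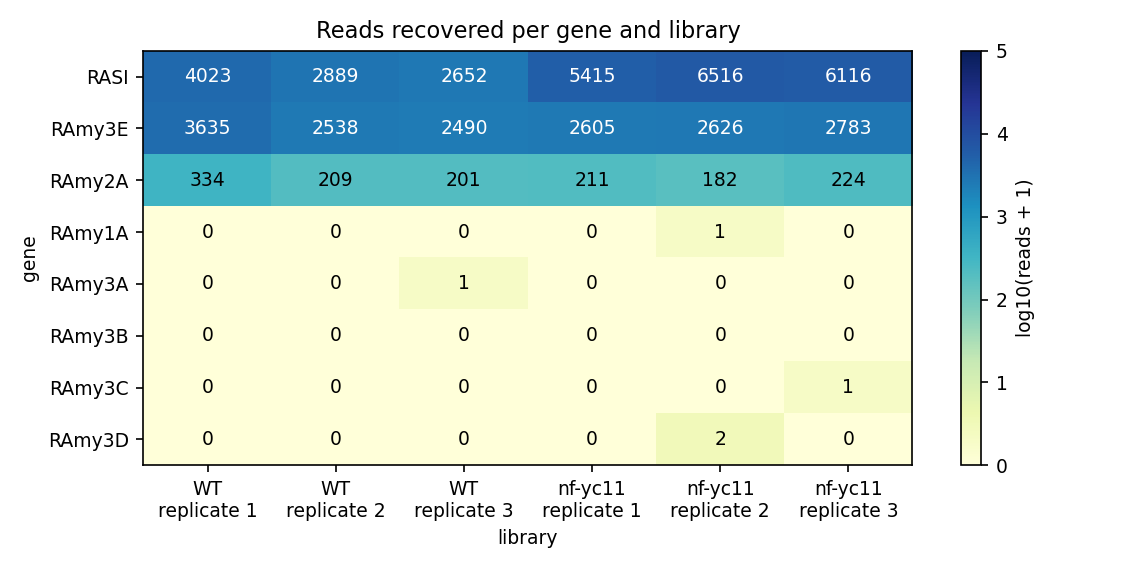
Reads recovered for each of the 8 genes (rows) in each of the 6 libraries (columns), with the number printed in each cell and shading by log10(reads + 1). RASI, RAmy3E and RAmy2A carry between 182 and 6516 reads in each library, and the other 5 genes carry 0, 1 or 2.

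RAmy3D and RAmy3E are next to each other in the RefSeq table, with 0 listed genes between them, yet RAmy3E had 2490 to 3635 reads in each library and RAmy3D had 2 in all. RAmy3A and RAmy3B, also next to each other, were both at or next to 0. The family includes close copies, and the authors' handling of reads that match more than 1 of them is not stated in the labels. Single low values are therefore uncertain.

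Summed over the 7 genes, alpha-amylase expression was 114 ± 2.69 FPKM in WT and 112 ± 0.847 FPKM in nf-yc11 (SD, n = 3). RAmy3E made up 92.8% ± 0.462 of this sum in WT and 93.4% ± 0.494 in nf-yc11, and RAmy2A nearly all of the rest. On the deposited scaling the sum ran from 111 to 117 FPKM in the WT libraries and from 112 to 113 FPKM in the nf-yc11 libraries, and the groups overlapped. With size factors the ratio of nf-yc11 to WT means went from 0.984 to 0.934.

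RASI was the most abundant of the 8 genes in both groups and the one that changed. Its WT libraries stood at 224, 227 and 223 FPKM, and its nf-yc11 libraries at 422, 501 and 441 FPKM. Each nf-yc11 library was well above every WT library. The means were 225 ± 2.07 and 454 ± 41.1 FPKM (SD, n = 3), the log2 change was 1.01 ± 0.06 SE with a 95% interval from 0.866 to 1.154, and RASI rose (adjusted p = 4.14e-05, limma). Ordered by mean FPKM among the features above 0, it moved from place 446 in WT to place 216 in nf-yc11. Of the tested features, 483 (2.19%) were called higher by as large a log2 change or more.

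The spread of RASI was not the same in the 2 groups. In WT its coefficient of variation was 0.920%, below the 1.77% that counting error alone gives per library. In nf-yc11 it was 9.04% against a counting error of 1.29%, with replicate 2 the highest. Without nf-yc11 replicate 2 the log2 change was 0.94 (adjusted p = 3.22e-05, limma).

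A ratio of 2 genes within a library does not change when each library is multiplied by a single factor, as with size factors, though quantile normalization can change it. RASI over RAmy3E was 2.12 ± 0.0707 in WT and 4.34 ± 0.398 in nf-yc11 (SD, n = 3), with WT libraries between 2.05 and 2.19 and nf-yc11 libraries between 4.002 and 4.78. RASI over the sum of the alpha-amylase genes was 1.97 ± 0.0647 in WT and 4.05 ± 0.393 in nf-yc11. The inhibitor transcript thus exceeded the summed alpha-amylase transcripts, per length, in all 6 libraries. RAmy3E over RAmy2A was 12.9 ± 0.883 and 14.3 ± 1.29, with the groups overlapping.

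Markers of the tissues a dissected endosperm can hold were measured beside RASI. In bulk tissue, fewer cells of a type and less RNA per cell cannot be told apart. Of 5 listed starchy endosperm markers, 3 were found by name in the gene table, and all 3 were lower in nf-yc11. Their sum went from 28989 to 29801 FPKM in the WT libraries to 24731 to 25037 FPKM in the nf-yc11 libraries. The 3 were the glutelins GluA1 and GluA2, with GluA1 the most abundant at 15725 ± 190.1 and 13400 ± 129 FPKM, and GBSSI, which makes amylose. These defining genes of the labelled tissue were thus high in all 6 libraries. Of 7 listed embryo and aleurone markers, 6 were found by name. Their sum ran from 3500 to 3822 FPKM in WT and from 3632 to 3815 FPKM in nf-yc11, and the groups overlapped. Of these 6, 4 of 5 tested were lower, none was higher and 1 was not called. For 2 of the 4, EMP1 and 1-Cys peroxiredoxin, the call ended when single libraries were left out (adjusted p up to 0.0816 and 0.0654, limma). These counts stand beside 19.3% of all tested features called lower and 49.1% called in either direction. Among the lower ones, RAB21, a dehydrin, stood at 252 ± 5.60 FPKM in WT and 227 ± 1.24 in nf-yc11, and LEA3, a late embryogenesis protein, at 115 ± 2.42 and 104 ± 1.81. By contrast OLE18, an oleosin and the most abundant, was at 2302 ± 158 and 2442 ± 84.8 FPKM (adjusted p = 0.211, limma). OSH1, a homeobox gene of the embryo and shoot meristem, was under the filter at 0.805 ± 0.257 and 0.939 ± 0.343 FPKM. Of 7 listed green pericarp markers, only 2 were found by name in the gene table. These 2 summed to 1538 to 1555 FPKM in WT and 1356 to 1497 FPKM in nf-yc11. Both encode chlorophyll a/b-binding proteins: LHCB1 (CAB1R) was lower, at 438 ± 3.82 and 272 ± 7.14 FPKM (adjusted p = 1.00e-05, limma), and LHCB1 (CAB2R), the more abundant, was not called, at 1107 ± 12.6 and 1143 ± 67.2 FPKM (adjusted p = 0.430, limma). Each sum is weighted to its most abundant genes, and the part of tissue makeup in the RASI result was not tested.

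**Figure D3:**
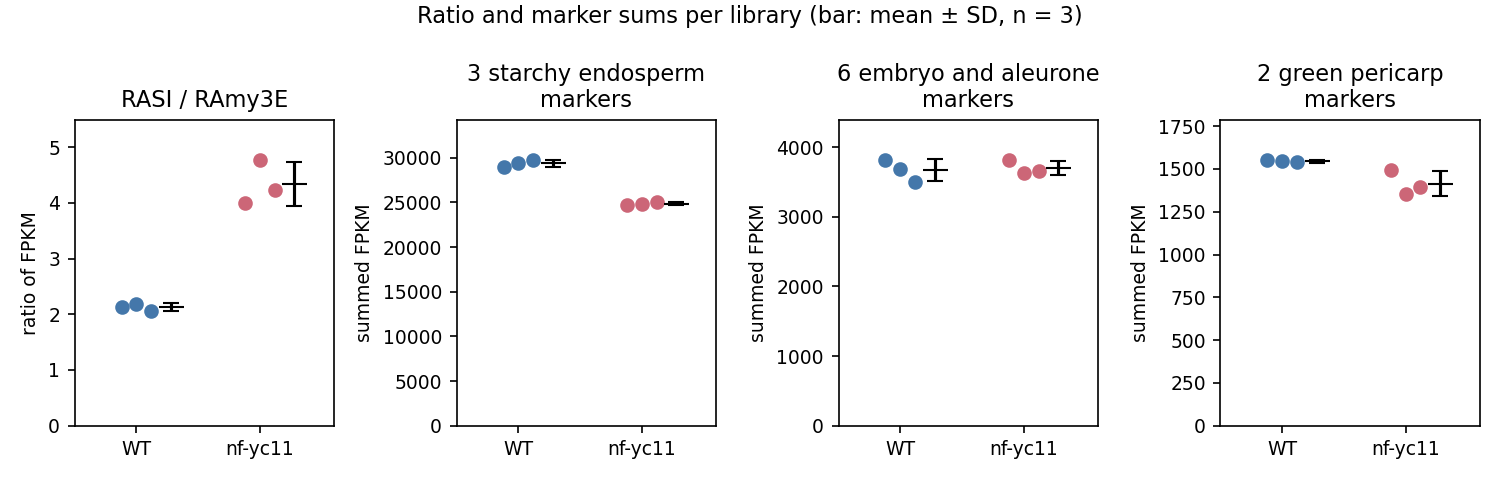
From left to right, the ratio of RASI to RAmy3E FPKM and the summed FPKM of 3 starchy endosperm, 6 embryo and aleurone and 2 green pericarp markers in each library (points; bars are the mean ± SD, n = 3). The ratio goes from 2.05 to 2.19 in WT to 4.002 to 4.78 in nf-yc11. The embryo and aleurone sum overlaps between groups, and the other 2 sums are lower in nf-yc11.

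Genes known to act on alpha-amylase expression in rice moved in both directions. Of 10 whose names were found in the gene table, 9 were tested: 4 rose, 3 fell and 2 were not called, beside 29.8% and 19.3% of all tested features. The median log2 change was 0.08 over the 9 and 0.06 over all tested features.

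On the sugar and oxygen side, MYBS1, an activator at the TATCCA element, was at 15.1, 14.6 and 12.9 FPKM in WT and at 23.6, 19.5 and 19.7 FPKM in nf-yc11, with no overlap. It rose by 0.53 ± 0.09 SE on the log2 scale (adjusted p = 0.0033, limma). MYBS2, a repressor at the same element, was at 12.7, 14.5 and 15.01 FPKM in WT and at 9.73, 6.72 and 8.18 FPKM in nf-yc11, again with no overlap. It fell by 0.72 ± 0.13 SE on that scale (adjusted p = 0.00342, limma), so the activator and the repressor of the pair went opposite ways. MYBS3, a repressor described in cold-treated rice, stood at 18.9 ± 0.257 and 20.0 ± 0.518 FPKM and was not called (adjusted p = 0.172, limma). Its groups did not overlap either. The share of all features whose groups do not overlap was not worked out, so a lack of overlap does not set these genes apart. CIPK15, a kinase that links oxygen shortage to SnRK1A, rose from 4.92 ± 0.226 to 6.69 ± 0.483 FPKM (adjusted p = 0.0058, limma). SnRK1A itself rose from 1.59 ± 0.0786 to 2.50 ± 0.387 FPKM (adjusted p = 0.0193, limma). Its call ended without WT replicate 1 (adjusted p = 0.0573), WT replicate 3 (0.0509) or nf-yc11 replicate 1 (0.0555).

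On the hormone side, GID1, the gibberellin receptor, rose from 21.8 ± 0.621 to 28.0 ± 2.41 FPKM (adjusted p = 0.00512, limma). SLR1, the DELLA repressor of gibberellin responses, fell from 13.2 ± 0.789 to 10.997 ± 1.11 FPKM (adjusted p = 0.0424, limma). The SLR1 call ended in 8 of 14 alternatives, among them the fit with no filter on low values (0.072), without the variance trend (0.0555), with the replicate number as a block (0.081), and in 5 leave-one-out fits. Those left out WT replicate 1 (0.0973), WT replicate 2 (0.127), WT replicate 3 (0.0509), then nf-yc11 replicate 2 (0.0932) and its replicate 3 (0.0782). VP1, a factor of abscisic acid responses in seeds and the most abundant of the list, fell from 43.0 ± 1.20 to 33.3 ± 5.18 FPKM (adjusted p = 0.0236, limma). Its call ended without WT replicate 1 (0.0695), WT replicate 2 (0.0574), WT replicate 3 (0.0547) or nf-yc11 replicate 3 (0.0579). WRKY71, a repressor of gibberellin-induced alpha-amylase expression, stood at 13.1 ± 2.36 and 10.1 ± 1.0 FPKM and was not called (adjusted p = 0.0804, limma). It was called lower with size factors (0.0442), quantile normalization (0.049) and voom on the recovered reads (0.0432), and without WT replicate 2 (0.0191).

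GAMYB, the MYB factor through which gibberellin activates RAmy1A in the aleurone, was low. It had 16, 12 and 13 reads in the WT libraries and 3 reads in each nf-yc11 library, or 0.344 ± 0.0367 and 0.0801 ± 0.00324 FPKM. It was under the filter and so not tested with the others. Without the filter it was called lower (adjusted p = 0.00514, limma). Its coefficient of variation was 10.7% in WT and 4.04% in nf-yc11, below the 27.1% and 57.7% that counting error alone gives per library. That p rests in part on this small spread, beside the variance trend over all features. Moreover, 3 reads are the limit used for a count of 0.

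Of 17 listed genes of starch breakdown outside the alpha-amylases, 3 were found by name in the gene table and all 3 were tested. The rest, among them all listed beta-amylases, GWD1 and PUL, had no match by name and are not reported, so most of the list is missing. Of the 3, 1 was called, beside 49.1% of all tested features called and 19.3% called lower. DPE2, a glucanotransferase that takes up the maltose released from starch, was at 12.8, 11.6 and 13.2 FPKM in WT and at 8.27, 8.69 and 9.43 FPKM in nf-yc11. The groups did not overlap, and DPE2 fell by 0.47 ± 0.07 SE on the log2 scale (adjusted p = 0.00193, limma). DPE1, its plastid relative, stood at 27.1 ± 1.27 and 29.2 ± 0.259 FPKM and was not called (adjusted p = 0.0999, limma). PWD, a dikinase that phosphorylates starch before it is degraded, stood at 7.99 ± 0.117 and 7.11 ± 0.171 FPKM and was not called either (adjusted p = 0.0615, limma). The groups of DPE1 and of PWD did not overlap either, so a lack of overlap was not particular to called genes. PWD was called lower with size factors (0.0174), quantile normalization (0.0248), no variance trend (0.0395) and voom (0.0408).

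**Figure D4:**
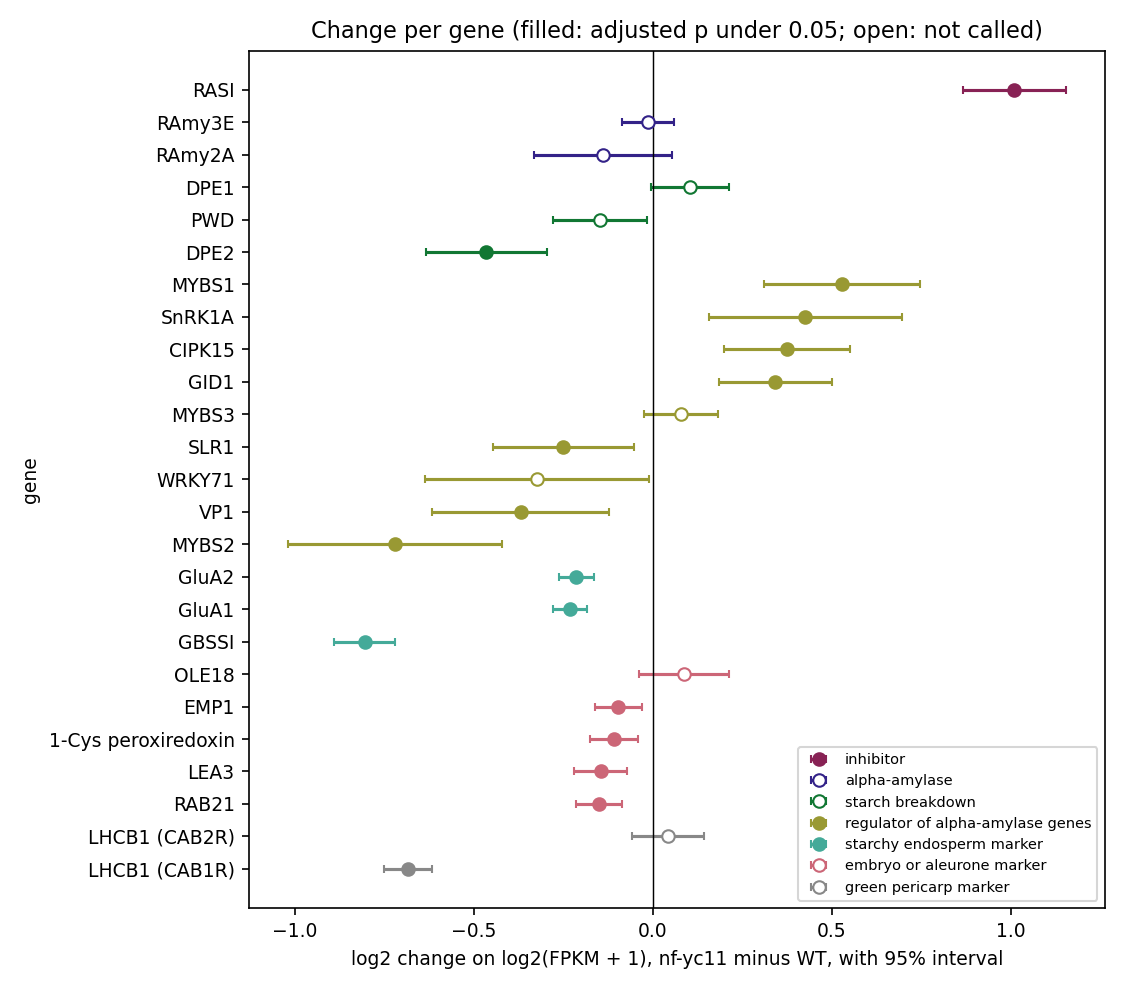
Log2 change on the log2(FPKM + 1) scale, nf-yc11 minus WT (horizontal axis), for the 3 tested members and 22 context genes (rows), with 95% intervals from limma. Filled points are called and open points are not. RASI stands at 1.01, RAmy3E at −0.01 and RAmy2A at −0.14, and the regulators lie on both sides of 0.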

How the data were processed

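TRIzol total RNA went into standard Illumina libraries, per the labels' protocols. FPKM values of 6 libraries were deposited as 1 table. CASAVA 1.7, HISAT2 2.0.5 and DESeq are listed, with no role, in the submitters' processing notes. Neither a read counter nor a genome build is named there, and no coordinates or sequences are printed.

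Whole reads and library totals were recovered from the steps of the FPKM values for 36189 of 36189 features above 0, within 0.0001 of a whole number. A feature's length is the shortest that gives whole reads. Limits for a count of 0 (3 reads) cover counting error only.

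Genotype was tested with limma 3.58.1 (R 4.3.3, variance trend) on log2(FPKM + 1) for features whose mean reached 1 FPKM, on the deposited scaling. This scale understates changes of low genes, and each fold is the ratio of 2 group means in FPKM. With 3 libraries per group, the smallest exact permutation p is 0.1. The fit and the recovery were also run on simulated data. In the simulation for the fit, every gene had the same small spread beyond counting error. Spreads as large as that of RASI in nf-yc11 were not covered. Python 3.11.15, numpy 2.4.6, pandas 2.3.3 and matplotlib 3.10.9 were used.

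The genes and lists were chosen with earlier results of these data known. Symbols were checked by name and by order along the chromosome, within 5% of its genes, in a RefSeq table without RAP IDs. Of 47 context genes 24 passed, and only these are reported. The naming rule was all 8 members and, per list, the most abundant gene and up to 3 called genes with the smallest p. It also took the 3 context genes with the highest Pearson r for RAmy3E and for RASI, as a description. CIPK15, MYBS3 and WRKY71 come under the rule by that r alone. SnRK1A, SLR1, GAMYB, PWD, EMP1 and OSH1 are named outside the rule, after their values were seen, to show more of each list. Alternatives were another pseudocount (0.1), no filter or at least 5 FPKM, size factors, quantile normalization, no variance trend, the replicate block, voom in limma on recovered reads and leaving out each library.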

Additional observations from a re-analysis of the deposited data

How the results depend on the processing

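RASI rose in all 14 alternatives, with log2 changes of 0.88 to 1.06 (adjusted p 2.90e-10 to 0.000579, limma), and RAmy2A was called in none (adjusted p 0.0695 to 0.460). RAmy3E passed under 2 of 14, size factors (log2 change −0.09) and quantile normalization (−0.12), so that 2 members in place of 1 were called there. The summed alpha-amylase ratio of nf-yc11 to WT was 0.984, 0.934 with size factors, and 0.973 to 0.996 with 1 library left out. The size-factor ratio moved by more than the coefficient of variation of the sum in WT. The count of called members was 1 in every leave-one-out fit. Quantile normalization called 5403 features higher and 5273 lower. Among all features, 8320 (at least 5 FPKM) to 11696 (voom) were called, beside 10842 as reported, and 9093 to 9669 with 1 library left out. The replicate block gave 9948 called features, 1 called member and a RASI log2 change of 1.01 (adjusted p = 0.000579, limma). Same-numbered libraries deviated together at r = −0.05 to 0.004, and libraries of different number at r = −0.06 to 0.11. The numbers thus showed no shared deviation, but so few pairs cannot tell whether the libraries were handled in pairs. Of the marker calls, GluA2 ended under quantile normalization (adjusted p = 0.224), 1-Cys peroxiredoxin with no variance trend (0.108) or without WT replicate 2 (0.0646) or nf-yc11 replicate 3 (0.0654), and EMP1 with no variance trend (0.128) or without any 1 library other than nf-yc11 replicate 2 (0.0603 to 0.0816). MYBS3, not called, was slightly below 0 under quantile normalization. The causes were not tested. Depth limits the 5 alpha-amylase genes next to 0.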

Other observations

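Over the 6 libraries, the context genes whose log2(FPKM + 1) values were most like those of RASI were CIPK15 (Pearson r = 0.916), MYBS3 (0.912) and MYBS1 (0.887). For RAmy3E the highest values were 0.509 (WRKY71), 0.431 (LEA3) and 0.416 (DPE2). The 6 libraries share their genotype difference, so these values are descriptions.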
